A study of Mus musculus with 9 samples.

Results

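The mitosis and spindle genes described here are 44 genes that a dividing cell uses to enter mitosis, attach and separate its chromosomes and complete cell division. They were listed by function, with earlier results of these arrays known. Of the 44, 41 were measured by a transcript cluster (the set of exon probes that reports 1 transcript) listed under a single gene symbol, among 14860 genes measured in the same way. Ccnb1, Cenpf and Ncapg were not analysed here. RNA came from mouse myeloid precursors (MPs) of the strain C57Black6, grown from flushed bone marrow with 100 ng/ml CSF-1 for 3 days and then placed in an osteoclast culture kit. The CSF-1 concentration printed is the labels' own, and a lower one stands in the published methods for in vitro culture. The groups were MPs kept in CSF-1 alone, MPs given RANKL for 1.5 days and MPs given RANKL for 3 days, with 3 arrays each. All 9 arrays thus share the strain, the marrow source and the expansion in CSF-1, and no genetic alteration is labelled. The labels give no culture time for CSF-1 alone, so the effects of RANKL and of time in culture cannot be told apart. They also leave unsaid if replicate arrays stand for separate mice or cultures, so p-values measure only the spread between arrays. The comparisons ask how far this set of genes changed as MPs moved toward osteoclasts.

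CSF-1 keeps myeloid precursors alive and dividing, and RANKL turns them toward the osteoclast, a large bone-resorbing cell that forms by fusion of precursors and no longer divides. In a dividing cell, CDK1 bound to B-type cyclins, helped by Polo-like and Aurora kinases, starts mitosis. Kinetochores then bind spindle microtubules, the spindle checkpoint holds the anaphase-promoting complex (APC/C) until every chromosome is attached, and kinesins, the chromosomal passenger complex and the cytokinesis proteins finish the division. Many of these genes are transcribed only from late S phase to mitosis, through promoters that carry CCAAT boxes, bound by NF-Y, and a cell cycle homology region (CHR), bound by the MuvB complex with B-MYB and FOXM1. In bulk RNA, fewer dividing cells and less of these transcripts per cell cannot be told apart.

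One array stood apart and has to be named before the results. RANKL 3 days replicate 1 held the lowest of the 9 values for 4151 of the 14860 genes (27.9%), against 6.34% to 11.2% for each of the other 8 arrays. When arrays were weighted by how well they followed their group, it received the smallest weight, 0.249, against 0.684 to 2.17 for the others. Its osteoclast markers lay on average above CSF-1 alone but below the other arrays at 3 days. Averaged over 12 such markers, among them Acp5, Ctsk and Mmp9, and set against the CSF-1 alone mean in log2 units, the arrays lay at 0.07, -0.02 and -0.05 in CSF-1 alone, 0.81, 2.39 and 2.44 at 1.5 days and 2.34, 3.15 and 3.19 at 3 days. The 9 measured of 12 macrophage and monocyte markers averaged -0.26, 0.16 and 0.10 in CSF-1 alone, -0.18, -0.40 and -0.41 at 1.5 days and -0.23, -0.31 and -0.27 at 3 days. Kit, a receptor of progenitors and mast cells, was high on replicate 1 of each group. It read 8.36, 7.74 and 8.36 there in CSF-1 alone, RANKL 1.5 days and RANKL 3 days. On replicates 2 and 3 of every group it read between 5.30 and 5.92. Kit was 1 of 13 measured granulocyte and mast cell markers. On the same replicate 1 arrays, these had medians of 0.11, -0.05 and -0.22 against their CSF-1 alone means. On RANKL 3 days replicate 1, 2 of the 13 lay above that mean and 11 below. The changes at 3 days are therefore also given from a fit without RANKL 3 days replicate 1, called the fit on 8 arrays. In it none of the 41 genes was called at 3 days against CSF-1 alone, where 0.686% of all genes were.

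The mitosis and spindle genes were close to level over 8 arrays and low on 1. Values are log2 signal, so a difference of 1 is a 2-fold change, and each gene was set against its own mean over the CSF-1 alone arrays. The median of the 41 genes was -0.05, 0.03 and 0.02 on the CSF-1 alone arrays, 0.07, 0.11 and 0.10 on the RANKL 1.5 days arrays, and -0.77, -0.02 and 0.14 on the RANKL 3 days arrays. On RANKL 3 days replicate 1 the median was thus 0.586 times the CSF-1 alone level, while on replicates 2 and 3 it was 0.988 and 1.10 times that level. All 41 genes had their lowest value of the 9 arrays on RANKL 3 days replicate 1, where 27.9% of all genes did. RANKL 3 days replicate 3 lay at the other end, with the highest of the 9 values for 13 of the 41 genes (31.7%), where 18.4% of all genes had their highest value on that array, the largest share of the 9.

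**Figure D1:**
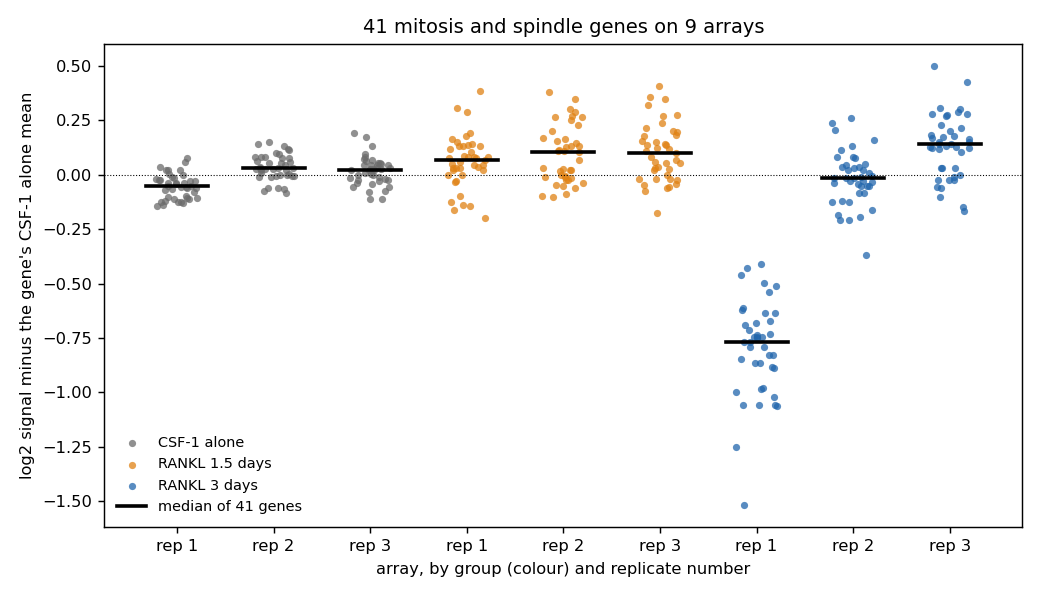
Log2 signal of each of the 41 genes minus its own CSF-1 alone mean (vertical axis) on the 9 arrays (horizontal axis), coloured by group; each point is 1 gene and the black bar is the median of the 41. The points of RANKL 3 days replicate 1 lie between -1.52 and -0.41, below those of the other 8 arrays, whose medians lie between -0.05 and 0.14.

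This split shows in the spread of the 3-day group. Over the 41 genes the median SD of CSF-1 alone was 0.07, that of RANKL 1.5 days 0.08 and that of RANKL 3 days 0.49 (n = 3 each), and the corresponding medians over all 14860 genes were 0.09, 0.09 and 0.15. Between replicates 2 and 3 of RANKL 3 days alone, the median SD was 0.10 for the 41 genes and 0.10 for all genes. The distance from replicate 1 up to the lower of the other 2 arrays at 3 days had a median of 0.78 and ran from 0.09 for Mki67 to 1.48 for Nuf2. Arrays that share a replicate number were also subtracted, which is no separate check. For number 1, differences of the 3-day array had to lie below 0, because it held the lowest value of all 41 genes. The median of 3 days minus CSF-1 alone over the 41 genes was -0.71 for number 1, -0.03 for number 2 and 0.12 for number 3. Between 3 days and 1.5 days the medians were -0.90 for number 1, with all 41 below 0, -0.11 for number 2, with 35 below 0, and 0.01 for number 3, with 17 below 0. The part of the marker and Kit values of this array in its low mitotic values was not tested. The macrophage marker average of this array lay within the range of the other 5 RANKL arrays, but single markers went apart on it: it held the lowest of the 9 values for 3 of the 9 markers (Ccr2 farthest down, at -2.18) and the highest for 3 (Mertk farthest up, at 0.73).

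Since the genes were low together on 1 array, their promoters were read for the motifs named above, in windows of 250 bases before to 50 bases after the start site, from RefSeq (GRCm38.p6). Windows were found for 37 of the 44 genes, 39 windows in all because some genes have more than 1 start. The letters TTTGAA, the core of the CHR, searched on both strands, stood in 30 of these windows (76.9%), and in 17.9% of all 32851 windows of the same length. CCAAT, also on both strands, stood in 29 (74.4%), and in 37.4% of all windows. Both motifs, whose matches can share at most 1 base, stood together in 26 (66.7%), and in 6.95% of all windows. Matches of TTTGAA also lay nearer the start site. Its median position was -10 in the windows of the mitosis and spindle genes and -124 in all windows, and 72.5% and 25.3% of the matches lay within 50 bases of the start. For CCAAT the median positions were -69.5 and -92, and the shares within 50 bases of the start were close, at 29.7% and 28.2%. The genes were chosen for a function whose promoters are known for these elements, so the shares describe the list.

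**Figure D2:**
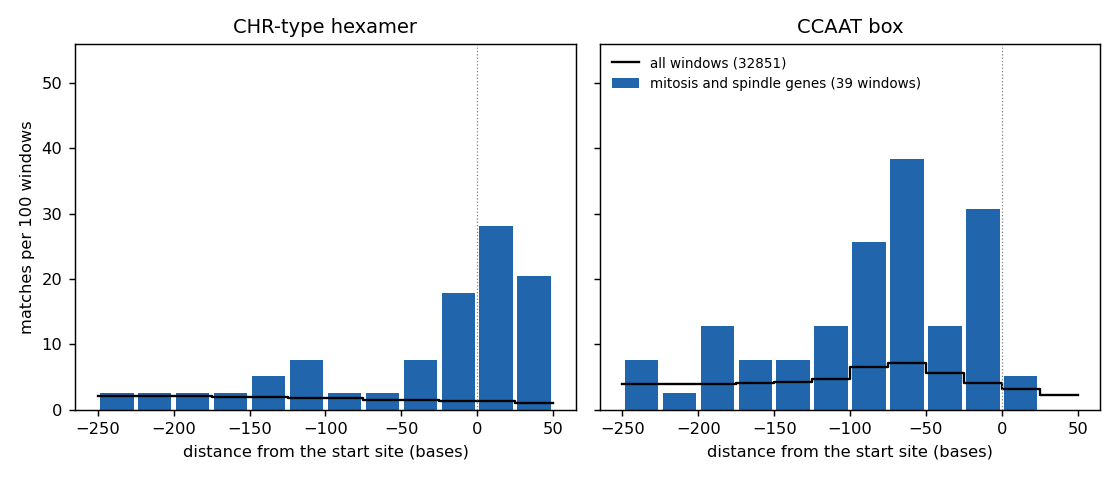
Matches of TTTGAA (left) and CCAAT (right) per 100 promoter windows (vertical axis) by distance from the start site in bases (horizontal axis, bins of 25 bases); bars are the 39 windows of the mitosis and spindle genes and the line is all 32851 windows. TTTGAA matches of the mitosis genes collect from 25 bases before to 50 bases after the start, and CCAAT matches are most frequent between -75 and -50.

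The promoters of Cdc20, Cdca3, Cdk1, Cenpa and Kif4 are printed as the first 5 by symbol among the 9 named genes whose window held both motifs. They are written 5′ to 3′ in the direction of the gene, with every match to a motif in capitals; an inverted CCAAT box reads ATTGG there:
Cdc20 (GRCm38.p6, chr4:118437294-118437593, minus strand): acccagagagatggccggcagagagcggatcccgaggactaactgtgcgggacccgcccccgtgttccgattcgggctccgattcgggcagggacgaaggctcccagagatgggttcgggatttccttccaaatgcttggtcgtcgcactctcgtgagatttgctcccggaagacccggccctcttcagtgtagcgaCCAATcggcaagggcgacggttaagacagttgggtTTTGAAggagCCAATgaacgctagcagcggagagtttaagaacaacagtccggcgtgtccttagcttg
Cdca3 (GRCm38.p6, chr6:124829926-124830225, plus strand): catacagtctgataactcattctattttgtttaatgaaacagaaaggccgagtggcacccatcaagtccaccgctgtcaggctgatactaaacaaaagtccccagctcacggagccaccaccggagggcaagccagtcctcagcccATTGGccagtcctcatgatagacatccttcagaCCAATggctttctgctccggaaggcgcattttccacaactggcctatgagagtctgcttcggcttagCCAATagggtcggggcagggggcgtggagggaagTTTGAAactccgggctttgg
Cdk1 (GRCm38.p6, chr10:69352863-69353162, minus strand): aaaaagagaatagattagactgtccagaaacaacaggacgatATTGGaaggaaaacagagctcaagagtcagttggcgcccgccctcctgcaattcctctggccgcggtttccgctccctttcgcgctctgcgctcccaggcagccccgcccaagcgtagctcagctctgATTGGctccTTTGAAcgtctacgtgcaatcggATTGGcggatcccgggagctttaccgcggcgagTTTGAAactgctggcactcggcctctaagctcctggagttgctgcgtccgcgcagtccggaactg
Cenpa (GRCm38.p6, chr5:30666636-30666935, plus strand): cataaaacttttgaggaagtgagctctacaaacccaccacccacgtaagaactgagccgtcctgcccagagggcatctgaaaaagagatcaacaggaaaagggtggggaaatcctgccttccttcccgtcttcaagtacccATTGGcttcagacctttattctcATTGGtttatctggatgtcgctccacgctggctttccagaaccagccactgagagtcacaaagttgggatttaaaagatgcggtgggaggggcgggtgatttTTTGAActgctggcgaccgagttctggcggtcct
Kif4 (GRCm38.p6, chrX:100625815-100626114, plus strand): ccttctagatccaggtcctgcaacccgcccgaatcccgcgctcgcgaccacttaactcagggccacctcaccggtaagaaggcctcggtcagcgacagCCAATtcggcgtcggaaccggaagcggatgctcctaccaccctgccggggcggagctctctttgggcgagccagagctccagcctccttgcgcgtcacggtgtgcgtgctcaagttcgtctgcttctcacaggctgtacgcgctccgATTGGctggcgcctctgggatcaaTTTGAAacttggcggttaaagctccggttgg
In Cdk1 TTTGAA stood at positions -71 and -15 from the start, with inverted CCAAT boxes at -80 and -48, and in Cdc20 it stood at -18, with CCAAT boxes at -53 and -8. In Cdca3, Cenpa and Kif4 the motif lay just downstream of the start, at 30, 16 and 19. As a description, on RANKL 3 days replicate 1, where all 41 genes were low, the 26 measured genes with TTTGAA in a window had a median of -0.77 relative to CSF-1 alone, and the 8 measured genes with a window but no match (Melk, Birc5, Bub1, Mad2l1, Cenpe, Nuf2, Nusap1 and Ncaph) had a median of -0.82.

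After 3 days of RANKL, no mitosis or spindle gene passed the test against CSF-1 alone. The test was limma's moderated test over all 14860 genes with Benjamini-Hochberg adjustment at 0.05, in which 0.397% of all genes were called (51 higher and 8 lower). The log2 change of the 41 genes had a median of -0.22, against -0.01 over all genes, and ran from -0.46 (Nuf2) to 0.08 (Cdc20), with 40 genes below 0 (51.9% of all genes lay below 0) and 1 above. The standard error had a median of 0.21, close to the size of the median change. Incenp alone had an unadjusted p under 0.05 (adjusted p = 0.473), where 10.5% of all genes did in either direction, and Spc25 alone had 3 RANKL values all below the 3 CSF-1 alone values, where 4.91% of all genes did. For 39 of the 41 genes the 95% interval lay between -1 and 1, that is, within a 2-fold change either way; the exceptions were Nuf2 and Bub1.

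Without RANKL 3 days replicate 1, the same comparison had a median of 0.065, with 28 genes above 0 and 13 below. No gene of the set was called, where 0.686% of all genes were. At an unadjusted p under 0.05, 5 genes (Plk1, Aurka, Cdc20, Kif20a and Anln) were higher and Spc25 was lower. In that fit 8.55% of all genes were higher and 4.35% lower by the same criterion. All 41 intervals then lay between -1 and 1, and 39 lay between -0.5 and 0.5. The negative median at 3 days thus rests on 1 array. Leaving out replicate 2 or replicate 3 of RANKL 3 days instead gave medians of -0.335 and -0.40.

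**Figure D3:**
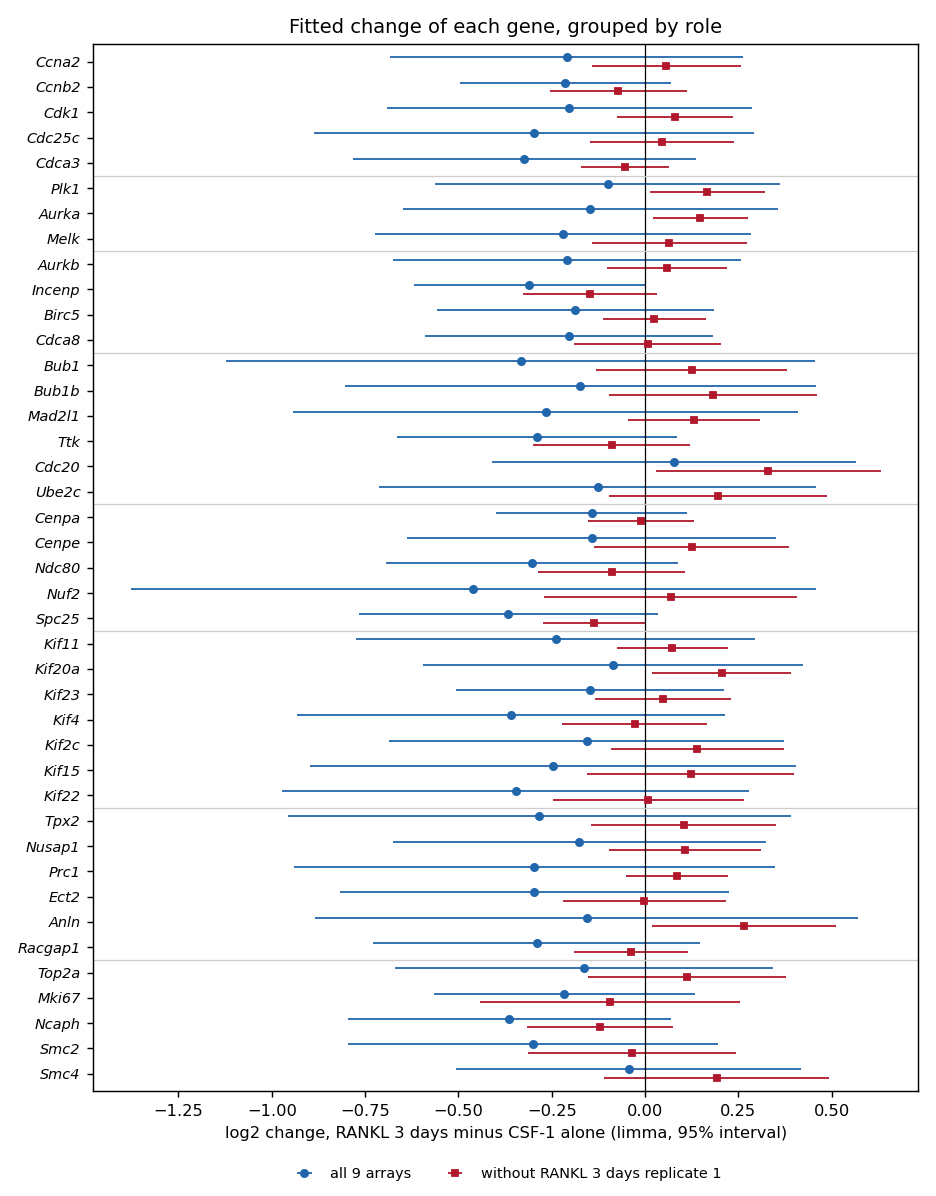
Fitted log2 change of each of the 41 genes (rows, grouped by role), RANKL 3 days minus CSF-1 alone, with 95% intervals from limma; circles are the fit on all 9 arrays and squares the fit without RANKL 3 days replicate 1. With all arrays 40 of 41 points lie below 0 and the intervals are wide; without that array 28 points lie above 0 and all intervals lie between -1 and 1.

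At 1.5 days of RANKL, again no gene of the set was called against CSF-1 alone, where 0.417% of all genes were. The 41 changes had a median of 0.08, against 0.01 over all genes, and ran from -0.11 (Incenp) to 0.31 (Ube2c); 30 lay above 0 (51.4% of all genes did), 9 below, and Tpx2 and Smc2 at 0. None had an unadjusted p under 0.05 in this fit, where 8.83% of all genes did. In 9 genes (22%) all 3 arrays at 1.5 days lay above all 3 of CSF-1 alone, where 8.63% of all genes did so. These were Ccna2, Plk1, Aurka, Birc5, Cdca8, Kif11, Kif20a, Top2a and Smc4. Spc25 alone lay below without overlap, where 6.05% of all genes did. The 3-day arrays enter the shared error of this fit. Without RANKL 3 days replicate 1, 10 genes were higher at 1.5 days at an unadjusted p under 0.05 (6.47% of all genes were), with a smallest adjusted p of 0.162. With only the 6 arrays of the comparison there were 9 (6.92% of all genes), with a smallest adjusted p of 0.172.

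Between RANKL 3 days and RANKL 1.5 days, all 41 genes had a log2 change below 0, where 52.5% of all genes did, with a median of -0.33 and a range from -0.47 (Ccna2) to -0.09 (Smc4); over all genes the median was -0.01. None was called, as for all genes (0%). At an unadjusted p under 0.05, 4 genes (Ccna2, Ccnb2, Birc5 and Cdca8) were lower at 3 days, where 2.52% of all genes were. In 6 genes (14.6%; the same 4 with Cdca3 and Cenpa) the 3-day arrays all lay below the 1.5-day arrays, where 3.37% of all genes did. Without RANKL 3 days replicate 1 the median was -0.04, with 26 genes below 0 and 14 above, and 3 genes were lower at an unadjusted p under 0.05 (2.01% of all genes were). Both RANKL groups were compared with the same CSF-1 alone arrays, so the comparisons are not independent. An exact permutation test of 3 arrays against 3 cannot give a two-sided p below 0.1.

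The cyclin-CDK core sets the start of mitosis. Cdk1, the kinase that drives entry, read 9.19, 9.22 and 9.25 in CSF-1 alone, 9.25, 9.39 and 9.25 at 1.5 days, and 8.45, 9.25 and 9.35 at 3 days. Its change at 3 days was -0.20 (SE 0.21, adjusted p = 0.779), the highest of the 5 genes of this role, and 0.08 on 8 arrays. Cdca3, an F-box-like protein that promotes mitotic entry, read 9.0, 9.07 and 9.0 in CSF-1 alone, 9.08, 9.04 and 9.05 at 1.5 days, and 8.16, 8.94 and 9.0 at 3 days. It had the lowest change of the role, -0.32 (SE 0.20, adjusted p = 0.634, with -0.053 on 8 arrays), and both genes were low on 1 array and level on the other 8. The B-type cyclin Ccnb2 had a log2 change of -0.21 and the CDK-activating phosphatase Cdc25c one of -0.30 at 3 days, neither past the test, and on 8 arrays they lay at -0.072 and 0.045.

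Ccna2, the A-type cyclin of S phase and early mitosis, is named because of its values. It read 10.24, 10.26 and 10.29 in CSF-1 alone, 10.65, 10.53 and 10.40 at 1.5 days, and 9.52, 10.25 and 10.39 at 3 days. The 1.5-day arrays lay above every other array for this gene. Its change was 0.26 at 1.5 days (SE 0.20, adjusted p = 0.864) and -0.47 between 3 days and 1.5 days (SE 0.20, adjusted p = 0.823). At 3 days against CSF-1 alone it was -0.21, and 0.057 on 8 arrays.

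Among the mitotic kinases, Plk1, the Polo-like kinase of spindle poles, kinetochores and midzone, read 9.47, 9.54 and 9.44 in CSF-1 alone, 9.79, 9.71 and 9.64 at 1.5 days, and 8.85, 9.69 and 9.61 at 3 days. On 5 of the 6 RANKL arrays it lay above the highest CSF-1 alone value, and on RANKL 3 days replicate 1 it lay below the lowest. Its change at 3 days was -0.10 (SE 0.20, adjusted p = 0.901) on all arrays and 0.17 on 8 arrays. Aurka, the Aurora kinase of spindle poles, also lay above all CSF-1 alone values on those 5 arrays, with log2 changes of -0.15 at 3 days (0.15 on 8 arrays) and 0.19 at 1.5 days. Melk, a kinase of proliferating and progenitor cells, read 7.74, 8.0 and 7.90 in CSF-1 alone, 8.01, 7.90 and 7.98 at 1.5 days, and 7.09, 7.89 and 8.0 at 3 days, with a log2 change of -0.22 at 3 days (SE 0.22, adjusted p = 0.769, with 0.065 on 8 arrays).

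The chromosomal passenger complex corrects faulty attachments and then moves to the midzone. Birc5 (survivin), its targeting subunit, read 8.02, 8.02 and 8.05 in CSF-1 alone, 8.15, 8.30 and 8.21 at 1.5 days, and 7.42, 8.08 and 8.03 at 3 days. Its values at 1.5 days all lay above those of CSF-1 alone, and at 3 days the change was -0.19 (SE 0.16, adjusted p = 0.734), and 0.025 on 8 arrays. Incenp, the scaffold of the complex, read 9.03, 9.18 and 9.25 in CSF-1 alone, 9.01, 9.05 and 9.08 at 1.5 days, and 8.52, 8.96 and 9.05 at 3 days. It had the smallest adjusted p of the 41 genes at 3 days, 0.473, with a change of -0.31 (SE 0.13), and it lay at -0.15 on 8 arrays. The catalytic subunit Aurkb and the subunit Cdca8 (borealin) had log2 changes of -0.21 and -0.20, neither past the test, and of 0.058 and 0.0067 on 8 arrays.

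The log2 changes of the checkpoint and APC/C genes at 3 days ran from -0.33 to 0.08. Cdc20, the activator that the checkpoint restrains, read 7.72, 7.91 and 7.65 in CSF-1 alone, 8.05, 7.87 and 7.87 at 1.5 days, and 7.33, 7.92 and 8.26 at 3 days. It was the only gene of the 41 with a positive change at 3 days, 0.08 (SE 0.21, adjusted p = 0.934), and on 8 arrays it lay at 0.33, with the highest bound of the set and an interval from 0.03 to 0.63. Bub1, a checkpoint kinase at kinetochores, read 9.10, 9.29 and 9.24 in CSF-1 alone, 9.21, 9.32 and 9.36 at 1.5 days, and 7.96, 9.18 and 9.49 at 3 days. The 3-day values spanned both the lowest and the highest of its 9 arrays, and the change was -0.33 (SE 0.34, adjusted p = 0.777, with 0.125 on 8 arrays). Mad2l1, Bub1b and Ttk, further checkpoint components, had log2 changes of -0.27, -0.17 and -0.29, and Ube2c, the ubiquitin-conjugating enzyme of the APC/C, one of -0.13. On 8 arrays these were 0.13 for Mad2l1, 0.18 for Bub1b, -0.09 for Ttk and 0.195 for Ube2c.

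At the centromere and kinetochore, Cenpa, the histone H3 variant that marks centromeres, lay closest to its CSF-1 alone mean on the low array. It read 8.39, 8.35 and 8.25 in CSF-1 alone, 8.41, 8.33 and 8.33 at 1.5 days, and 7.92, 8.32 and 8.32 at 3 days, a change of -0.14 (SE 0.11, adjusted p = 0.706, with -0.01 on 8 arrays). Nuf2, a subunit of the NDC80 complex that binds microtubules, lay farthest from it. It read 8.97, 9.01 and 9.25 in CSF-1 alone, 8.88, 9.04 and 9.28 at 1.5 days, and 7.56, 9.04 and 9.25 at 3 days, and its change of -0.46 had an interval from -1.38 to 0.46 (SE 0.40, adjusted p = 0.734), and it lay at 0.068 on 8 arrays. Replicates 2 and 3 at 3 days thus lay at the CSF-1 alone level. Spc25, of the same complex and chosen here after its values were seen, read 8.61, 8.58 and 8.57 in CSF-1 alone, 8.56, 8.49 and 8.41 at 1.5 days, and 7.76, 8.46 and 8.44 at 3 days. All 6 of its RANKL values lay below all 3 of CSF-1 alone, with changes of -0.37 at 3 days (adjusted p = 0.524, with -0.14 on 8 arrays) and -0.10 at 1.5 days (adjusted p = 0.983). Ndc80 and Cenpe, a kinesin of the kinetochore, had log2 changes of -0.30 and -0.14 at 3 days, and of -0.09 and 0.125 on 8 arrays.

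**Figure D4:**
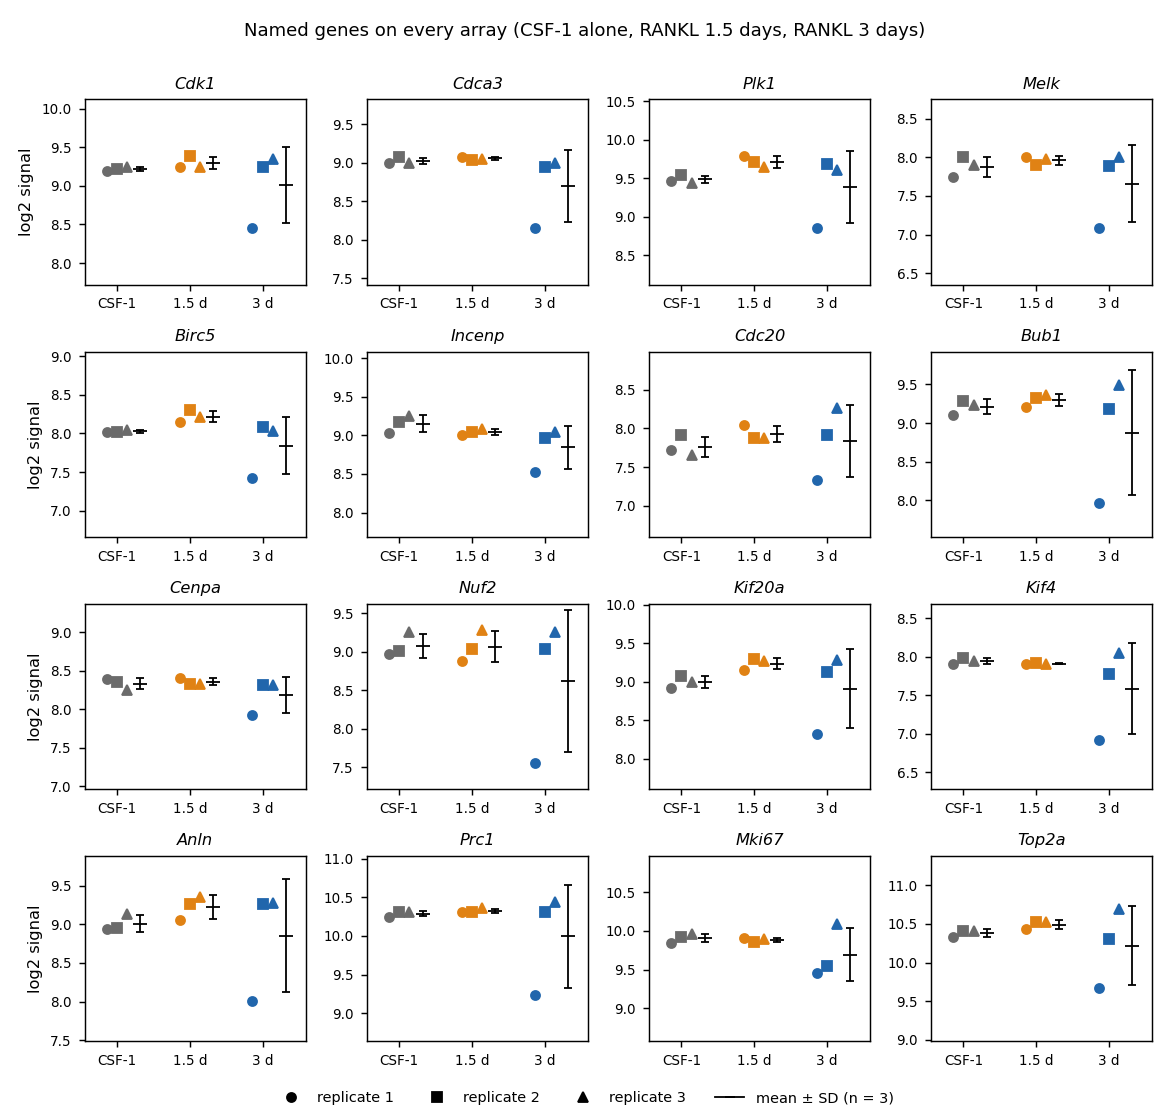
Log2 signal (vertical axes, each spanning the same number of units) of 16 named genes on every array, by group (horizontal axes); circles, squares and triangles are replicates 1, 2 and 3, and the bar beside each group is its mean ± SD (n = 3). The circle at 3 days is the lowest point of every panel; in Mki67 it lies 0.09 below the square beside it.

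Of the mitotic kinesins, Kif20a, which carries the passenger complex to the midzone, read 8.92, 9.08 and 9.0 in CSF-1 alone, 9.15, 9.29 and 9.27 at 1.5 days, and 8.33, 9.13 and 9.28 at 3 days. As with Plk1, 5 of its 6 RANKL values lay above all of CSF-1 alone. The change was -0.09 at 3 days (SE 0.22, adjusted p = 0.928, with 0.205 on 8 arrays) and 0.24 at 1.5 days (adjusted p = 0.907). Kif4, a chromokinesin that works with Prc1, read 7.90, 7.98 and 7.95 in CSF-1 alone, 7.91, 7.92 and 7.90 at 1.5 days, and 6.92, 7.78 and 8.05 at 3 days. It had the lowest change of the 7 kinesins, -0.36 (SE 0.25, adjusted p = 0.675, with -0.028 on 8 arrays), while its 1.5-day values had an SD of 0.01. The spindle motor Kif11 and the microtubule depolymerase Kif2c had log2 changes of -0.24 and -0.16, Kif15 and the chromokinesin Kif22 of -0.25 and -0.35, and the central spindle motor Kif23 of -0.15. On 8 arrays all 5 lay above 0, from 0.0083 for Kif22 to 0.14 for Kif2c.

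Among genes of spindle assembly and cytokinesis, Prc1, which bundles midzone microtubules, read 10.25, 10.31 and 10.31 in CSF-1 alone, 10.31, 10.31 and 10.36 at 1.5 days, and 9.23, 10.31 and 10.44 at 3 days. Apart from replicate 1 at 3 days its values ran from 10.25 to 10.44, and the change was -0.30 (SE 0.28, adjusted p = 0.754, with 0.085 on 8 arrays). Anln (anillin), a scaffold of the contractile ring, read 8.94, 8.95 and 9.14 in CSF-1 alone, 9.06, 9.26 and 9.36 at 1.5 days, and 8.01, 9.27 and 9.28 at 3 days. Its change was -0.16 on all arrays (SE 0.31, adjusted p = 0.902) and 0.265 on 8 arrays. Tpx2, Nusap1, Ect2 and Racgap1, which act in spindle assembly and in furrow signalling, had log2 changes of -0.28, -0.18, -0.30 and -0.29. On 8 arrays Tpx2 and Nusap1 lay at 0.10 and 0.11, and Ect2 and Racgap1 at -0.0017 and -0.038.

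The last role covers chromosome structure and the proliferation marker. Mki67, which coats mitotic chromosomes and is the usual marker of cycling cells, read 9.85, 9.92 and 9.96 in CSF-1 alone, 9.91, 9.86 and 9.89 at 1.5 days, and 9.45, 9.54 and 10.09 at 3 days. It was the gene in which replicates 1 and 2 at 3 days lay closest, and its change was -0.22 (SE 0.15, adjusted p = 0.680, with -0.095 on 8 arrays). Top2a, the topoisomerase that untangles sister chromatids, read 10.33, 10.41 and 10.41 in CSF-1 alone, 10.43, 10.53 and 10.52 at 1.5 days, and 9.67, 10.30 and 10.69 at 3 days, a change of -0.16 (SE 0.22, adjusted p = 0.840, with 0.11 on 8 arrays). Both markers thus lay below the range of CSF-1 alone on replicates 1 and 2 at 3 days and above it on replicate 3. On replicate 2 at 3 days all 5 measured genes of this role lay below their CSF-1 alone mean (average -0.18). On replicate 3 at 3 days 4 lay above it and 1 below (average 0.20).

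The condensin genes bracketed this role. Ncaph, the linking subunit of condensin I, read 8.46, 8.63 and 8.46 in CSF-1 alone, 8.62, 8.55 and 8.46 at 1.5 days, and 7.67, 8.33 and 8.46 at 3 days, with a change of -0.36 (SE 0.19, adjusted p = 0.557, with -0.12 on 8 arrays). Smc4, an ATPase subunit of condensin, read 9.14, 9.22 and 9.22 in CSF-1 alone, 9.23, 9.26 and 9.23 at 1.5 days, and 8.68, 9.15 and 9.62 at 3 days, with a change of -0.04 (SE 0.20, adjusted p = 0.968, with 0.19 on 8 arrays). Its partner Smc2 had a log2 change of -0.30, and of -0.035 on 8 arrays.

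The roles differed little in how far they lay below CSF-1 alone on RANKL 3 days replicate 1. Their means there were -0.92 for spindle assembly and cytokinesis, -0.85 for the checkpoint and APC/C, -0.84 for kinesins, -0.83 for the kinetochore, -0.77 for the cyclin-CDK core, -0.72 for the kinases, -0.67 for chromosome structure and -0.65 for the passenger complex. The genes farthest below were Nuf2 (-1.52) and Bub1 (-1.25), and those closest to CSF-1 alone were Cenpa (-0.41), Cdc20 (-0.43) and Mki67 (-0.46).

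Lists of other genes of the same pathway averaged below CSF-1 alone on RANKL 3 days replicate 1, to different degrees. Of 53 further kinetochore, spindle and cytokinesis genes, 37 were measured, and all 37 had their lowest value on RANKL 3 days replicate 1, where they averaged -0.79; on the other 8 arrays they averaged between -0.09 and 0.12. Over all genes, 27.9% had their lowest value on that array. The share was 12 of 19 further mitotic kinases and phosphatases (mean -0.44) and 12 of 18 regulators of mitotic promoters (-0.40). It was 14 of 22 genes of cohesin, condensin and chromatid separation (-0.36) and 10 of 17 further APC/C genes (-0.23). None of these genes was called in any of the 3 comparisons. Few of all genes were: 0.397% at 3 days and 0.417% at 1.5 days against CSF-1 alone, and 0% between the RANKL groups. The median changes at 3 days were -0.24, -0.21, -0.16, -0.075 and -0.06 in the order given, and 0.053, -0.027, -0.13, 0.0475 and 0.013 on 8 arrays. The medians of the first, the fourth and the fifth list thus turned sign without that array. Those of the second and the third list did not. Of the 18 regulators, the third list, 5 were lower and 0 higher at 3 days at an unadjusted p under 0.05 on all arrays. Over all genes 4.63% were lower and 5.9% higher by that criterion. On RANKL 3 days replicate 2, 14 of the 18 lay below their CSF-1 alone mean and 4 above.

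**Figure D5:**
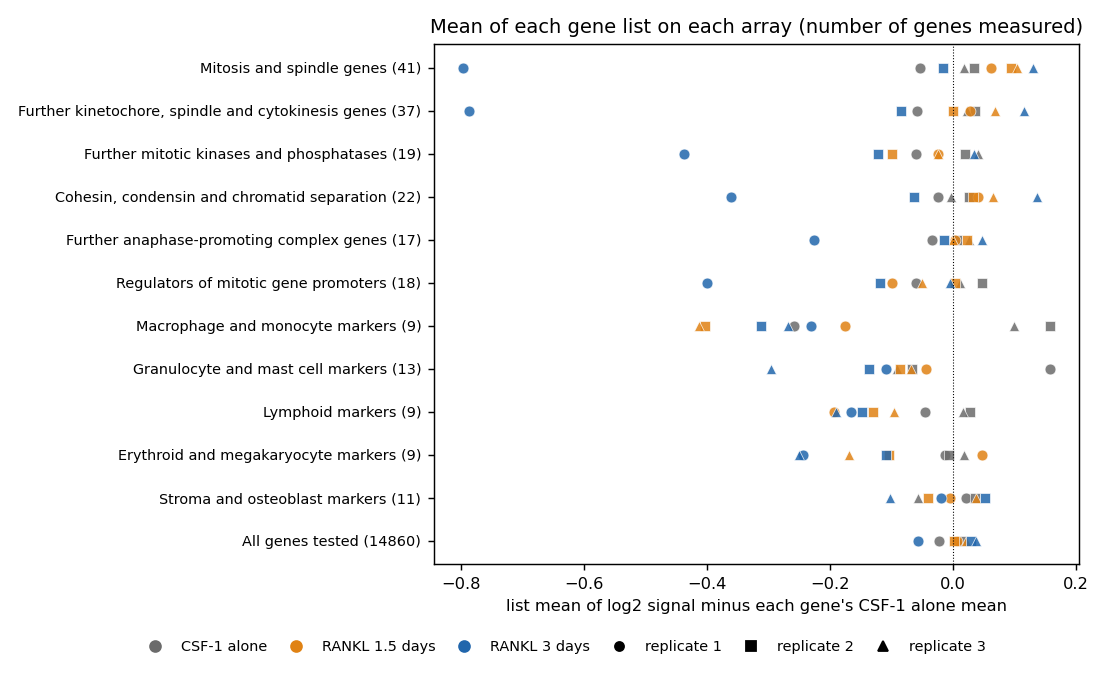
Mean over each gene list of log2 signal minus the CSF-1 alone mean of each gene (horizontal axis), 1 row per list with the number of genes measured; colour is the group and shape the replicate number. RANKL 3 days replicate 1 lies at -0.80 for the mitosis and spindle genes and at -0.79 for the further kinetochore and spindle genes, and within the range of the other RANKL arrays for the macrophage markers.

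In the first of these lists, Nsl1, a subunit of the MIS12 kinetochore complex, read 7.90, 8.09 and 7.98 in CSF-1 alone, 7.70, 7.72 and 7.69 at 1.5 days, and 7.12, 7.65 and 7.76 at 3 days. All 6 RANKL values lay below CSF-1 alone, with changes of -0.48 at 3 days (SE 0.15, adjusted p = 0.313, with -0.285 on 8 arrays) and -0.29 at 1.5 days (adjusted p = 0.707). Hmmr, a microtubule protein of spindle poles, lay at the other end with -0.04 (0.375 on 8 arrays) and read 7.0, 7.93 and 8.54 at 3 days, against 7.72, 7.93 and 7.93 in CSF-1 alone. Its 3 values at 3 days thus held the lowest and the highest of its 9 arrays.

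Among the regulators of sister chromatids and of the APC/C, Cdca5 (sororin), which protects cohesin, had a log2 change of -0.34 (adjusted p = 0.547, with -0.11 on 8 arrays), and Pttg1 (securin), which restrains separase, one of 0.18 (adjusted p = 0.611, with 0.16 on 8 arrays). Pttg1 read 7.70, 7.65 and 7.63 at 3 days, against 7.58, 7.48 and 7.38 in CSF-1 alone, so it was not low on RANKL 3 days replicate 1. Fbxo5 (EMI1), an inhibitor of the APC/C, read 8.08, 9.15 and 9.15 at 3 days, against 8.99, 9.36 and 9.35 in CSF-1 alone, a change of -0.44 (adjusted p = 0.635), and of -0.083 on 8 arrays. Mad2l1bp (p31comet), which silences the checkpoint, had a log2 change of 0.12 (adjusted p = 0.705, with 0.052 on 8 arrays).

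Nek6 and Nek9, kinases of the NIMA family that act together at the spindle, lay at opposite ends of the further kinases. Nek6 read 8.57, 8.49 and 8.40 in CSF-1 alone, 8.29, 7.84 and 7.95 at 1.5 days, and 8.19, 7.74 and 7.82 at 3 days. All 6 RANKL values lay below CSF-1 alone, and the changes were -0.57 at 3 days (SE 0.15, adjusted p = 0.203, with -0.71 on 8 arrays) and -0.46 at 1.5 days (adjusted p = 0.364). With a term that set replicate 1 against replicates 2 and 3 of each group, the 3-day change passed the threshold (adjusted p = 0.0257). Nek9 read 9.35, 9.29 and 9.46 at 3 days, against 9.17, 9.24 and 9.15 in CSF-1 alone, a change of 0.18 (adjusted p = 0.342, with 0.19 on 8 arrays).

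Of the regulators that act on mitotic promoters, E2f7, a repressor of the E2F family, had the lowest change, -0.59 (SE 0.19, adjusted p = 0.309, with -0.36 on 8 arrays), with 6.38, 7.0 and 7.15 at 3 days, against 7.25, 7.57 and 7.48 in CSF-1 alone. Nfyc, a subunit of the CCAAT-binding factor NF-Y, had the highest, 0.80 (SE 0.43, adjusted p = 0.571, with 0.98 on 8 arrays), with 4.88, 5.34 and 5.49 at 3 days, against 4.46, 4.64 and 4.20 in CSF-1 alone. The 3-day and CSF-1 alone values did not overlap for either gene, and Nfyc was the one with the wider error. Over all genes, 6.59% lay higher and 4.91% lower without overlap. At 1.5 days Nfyc lay at -0.94, 0.83 and -0.67 against its CSF-1 alone mean, so its values did not move 1 way with RANKL. With all its clusters averaged, Nfyc had a change of -0.145, so its direction depends on the cluster read.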

How the data were processed

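Total RNA was hybridised to 9 Affymetrix Mouse Exon 1.0 ST arrays, 3 in each of 3 groups. The authors deposited log2 values with 2 decimals, made per the labels with Affymetrix Expression Console and RMA (background correction, quantile normalization and probe summary); no source read here names their versions. Quantile normalization gives every array a like distribution, so a change in total RNA per cell is not seen. The table held 23332 transcript clusters, of which 14996 had a single gene symbol in the platform annotation, 1019 several and 7317 none listed; 14941 were matched to RefSeq. For the 135 symbols with several clusters (Plk1 among the 41), the one with the highest mean was kept, which left 14860 genes. Array medians ran from 5.02 on CSF-1 alone replicate 3 to 5.22 on RANKL 3 days replicate 3. Over the 14860 genes the medians ran from 5.60 on RANKL 3 days replicate 1 to 5.79 on RANKL 3 days replicate 3. The number of arrays limits the precision.

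Groups were taken from the labels and fitted as a mean each with limma 3.58.1 in R 4.3.3 (lmFit and eBayes, 6 residual and 1.83 prior degrees of freedom), two-sided, with Benjamini-Hochberg adjustment over all 14860 genes at 0.05. The fit was tested on simulated data. The members and gene lists were chosen with earlier results of these data known, so no list was tested as a set. Named genes are, in each role or list, the lowest and the highest change at 3 days, with Cdk1, Mki67 and Top2a; others are said to be chosen by their values. Deviations of same-numbered arrays at 3 days and 1.5 days of RANKL correlated over genes at 0.366, 0.211 and 0.146 for numbers 1, 2 and 3. Unlike numbers 2 and 3 gave 0.178 and 0.061, and number 1 against 2 or 3 gave -0.315 to -0.171. Number 1 was thus set apart from numbers 2 and 3, which were not clearly paired by number. The labels do not say what a number stands for. Against CSF-1 alone the same numbers gave 0.331, 0.063 and 0.119 for RANKL 3 days, and 0.27, 0.046 and 0.134 for RANKL 1.5 days. Number 1 against 2 or 3 lay between -0.238 and -0.098 there. The main fit took no pairing in any comparison. Alternatives covered the replicate block, each array left out, normalization, dim genes, variance models, array weights, cluster choice and the unpaired t-test.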

Additional observations from a re-analysis of the deposited data

How the results depend on the processing

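No mitosis or spindle gene was called in any of the 3 comparisons under any alternative run. What depended on the arrays was the direction at 3 days. Over all alternatives the median log2 change of the 41 genes ran from -0.40 to 0.065 for RANKL 3 days minus CSF-1 alone, from 0.05 to 0.09 for RANKL 1.5 days minus CSF-1 alone, and from -0.505 to -0.03 for RANKL 3 days minus RANKL 1.5 days; the values above 0 at 3 days came from the fits without RANKL 3 days replicate 1 and on replicates 2 and 3 alone. With the replicate block the medians were -0.22, 0.08 and -0.33, as without it, and the calls over all genes at 3 days were 97 in place of 59; the block changed no call of a mitosis or spindle gene. Calls over all genes also varied with the arrays kept, from 4 to 102 at 3 days and from 2 to 139 at 1.5 days with 1 array left out. With replicates 2 and 3 alone they were 334 and 474, with a term for replicate 1 215 and 205, with only the 6 arrays of a comparison 31 and 26, with 9907 brighter genes 95 and 95, with the 7430 brightest 111 and 103, with all clusters 19 and 15, and by the methods' t-test 0 and 8; array weights gave 607 at 1.5 days, and centring on the median gave 97 at 3 days. Nek6 was called with replicates 2 and 3 alone (-0.665 at 3 days and -0.55 at 1.5 days), with the replicate 1 term at 3 days (-0.57) and with array weights at 1.5 days (-0.51).

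Without RANKL 3 days replicate 1, 27 of the 41 genes turned sign for RANKL 3 days minus CSF-1 alone, 14 for RANKL 3 days minus RANKL 1.5 days and 0 for RANKL 1.5 days minus CSF-1 alone. Of the genes named by rule, those whose sign turned under an alternative are given as log2 changes, none past the threshold, and the cause was not tested beyond the arrays left out. For RANKL 3 days minus CSF-1 alone on replicates 2 and 3, the values were 0.065 for Cdk1, 0.16 for Plk1, 0.02 for Birc5, 0.07 for Bub1, 0.015 for Nuf2, 0.02 for Cenpa, 0.165 for Kif20a, 0.065 for Prc1, 0.23 for Anln, 0.165 for Smc4, 0.085 for Top2a and 0.305 for Hmmr. With array weights they were 0.042 for Plk1, 0.053 for Kif20a, 0.052 for Anln, 0.071 for Smc4 and 0.15 for Hmmr, and with clusters averaged -0.145 for Nfyc. With 1 array left out they ran from -0.37 to 0.08 for Cdk1, -0.39 to 0.065 for Melk, -0.25 to 0.17 for Plk1, -0.305 to 0.025 for Birc5, -0.64 to 0.125 for Bub1, -0.78 to 0.068 for Nuf2, -0.27 to 0.205 for Kif20a, -0.52 to 0.085 for Prc1, -0.37 to 0.265 for Anln, -0.28 to 0.19 for Smc4, -0.40 to 0.11 for Top2a, -0.395 to 0.375 for Hmmr and -0.135 to 0.33 for Cdc20.

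For RANKL 1.5 days minus CSF-1 alone on replicates 2 and 3 they were -0.01 for Melk, 0.03 for Nuf2, -0.04 for Ncaph, -0.015 for Cdca5 and 0.09 for Nfyc; centring gave -0.0033 for Cenpa and for Ncaph, and array weights 0.0115 for Nfyc. With 1 array left out they ran from -0.0117 to 0.083 for Ncaph, -0.0017 to 0.048 for Cdca5, -0.12 to 0.083 for Nuf2, -0.0133 to 0.057 for Cenpa, -0.053 to 0.0017 for Mki67 and -0.81 to 0.077 for Nfyc.

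For RANKL 3 days minus RANKL 1.5 days on replicates 2 and 3 they were 0.005 for Melk, 0.22 for Cdc20, 0.005 for Kif4, 0.04 for Prc1, 0.14 for Smc4, 0.15 for Hmmr and 0.07 for Pttg1; array weights gave 0.07 for Cdc20, 0.032 for Smc4 and 0.0086 for Pttg1. With 1 array left out they ran from -0.105 to 0.09 for Pttg1, -0.25 to 0.0217 for Nek6, -0.45 to 0.0033 for Cdk1, -0.73 to 0.038 for Bub1, -0.305 to 0.16 for Cdc20, -0.77 to 0.078 for Nuf2, -0.56 to 0.005 for Kif4, -0.56 to 0.048 for Prc1, -0.59 to 0.048 for Anln, -0.325 to 0.145 for Smc4, -0.51 to 0.0017 for Top2a, -0.32 to 0.0017 for Nsl1, -0.555 to 0.215 for Hmmr and -0.105 to 0.04 for Mad2l1bp.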
